A study of Mus musculus with 93 samples.

Results

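The comparison described here set the liver transcriptome of CAST/EiJ mice against that of C57BL/6J mice while both strains ate the control diet. All mice labelled with these strains and the control diet (CD) were taken, which gave 7 CAST/EiJ and 8 C57BL/6J mice, 15 of the 93 mice of the series, and every gene of the count table that passed the filter on low counts, 19110 of 53465 genes. The series holds male mice of 7 inbred strains on CD or on a western-style diet (WD), and its question was how far the genetic background decides the liver's response to the diet. CD gave 10% of its energy as fat, 73% as carbohydrate and 17% as protein, against 40%, 43% and 17% in WD. All 15 mice were males, were housed at 30°C from 6 weeks of age and received CD from 7 weeks of age. Both strains were untreated and carried no transgene. C57BL/6J is the classical laboratory strain of the subspecies Mus musculus domesticus, and CAST/EiJ is a wild-derived inbred strain of Mus musculus castaneus.

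Hepatocytes make most plasma proteins, synthesise cholesterol, fatty acids and bile acids, break down amino acids and modify foreign compounds with cytochrome P450 and conjugating enzymes. In male mice the pulsatile release of growth hormone sets a male pattern of liver genes, which includes the major urinary proteins, small pheromone carriers excreted in urine. Liver tissue also holds Kupffer cells, which are resident macrophages, other leukocytes, endothelium, stellate cells and bile duct cells, and a bulk RNA sample cannot tell fewer cells of a type from less RNA per cell.

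Reads of both strains had been aligned to the C57BL/6J reference genome, and the fate of the reads differed between the strains. Each mouse contributed 60800000 to 62400000 reads (rounded). RNA integrity numbers were 8.7 to 9.2 in CAST/EiJ and 7.0 to 8.9 in C57BL/6J. In CAST/EiJ 10.8% ± 1.66 of the reads (SD, n = 7; 8.93 to 13.9%) were unmapped, compared with 2.23% ± 0.329 in C57BL/6J (n = 8; 1.66 to 2.6%), a difference of 8.59 percentage points (two-sided exact permutation test, p = 1.55e-04, adjusted over 7 shares 2.72e-04). Reads on genes made up 69% ± 1.69 in CAST/EiJ and 79.1% ± 0.592 in C57BL/6J, or 41300000 to 44600000 against 48600000 to 49600000 reads (exact permutation test, p = 1.55e-04, the smallest that this test can give). Reads that mapped to several places were more frequent in CAST/EiJ, by 2.41 percentage points (exact permutation test, adjusted p = 2.72e-04). Sequence differences of CAST/EiJ from the reference may therefore lower or raise the count of single genes, and their part in any result below was not tested.

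Several mice stood apart within their strain. Mouse 2 of the C57BL/6J group had the lowest mean correlation with its group (0.9538, pairs of the group between 0.9444 and 0.9911), and carried RNA of the adrenal steroid enzymes Cyp11a1 (68.8 CPM) and Cyp11b1 (112 CPM), which were at 0 or below 0.1 CPM in the other mice of both groups. Levels are given as CPM, counts divided by the TMM-scaled number of reads on genes and multiplied by 1e6. RNA of the pancreatic enzymes Pnlip (35.5 and 7.81 CPM) and Cpa1 (20.9 and 4.12 CPM) was present in CAST/EiJ mice 6 and 2. RNA of muscle genes was present in CAST/EiJ mice 4 to 7, which were the 4 CAST/EiJ mice of cohort 4: Acta1, skeletal muscle actin, had 17.5 to 134 CPM in these mice and at most 0.0412 CPM in the other 11. The strains shared only cohort 1, with 3 C57BL/6J mice and 1 CAST/EiJ mouse, so that strain and cohort cannot be told apart for most of the comparison. Beside these, Alb, the gene of serum albumin and a marker of hepatocytes, lay at 81966 to 97700 CPM in CAST/EiJ (median 93958) and at 88962 to 107503 CPM in C57BL/6J (median 100804). Its log2 difference was −0.11 ± 0.09 (SE, adjusted p = 0.283). Every library thus carried the hepatocyte marker at a high level, and the Y-linked gene Ddx3y, an RNA helicase expressed in male cells, was present in all 15 mice at 56.8 to 118 CPM.

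The strain difference reached most expressed genes. Differences were tested with limma-voom and adjusted with the Benjamini-Hochberg procedure over all 19110 genes, and a gene was called at an adjusted p below 0.05. On CD 12595 genes were called (65.9%), with 6229 higher (32.6%) and 6366 lower (33.3%) in CAST/EiJ. The median log2 fold change of all tested genes was −0.01, with quartiles of −0.59 and 0.43. Of the called genes 7153 differed by less than 2-fold, whereas 2374 were at least 2-fold higher (12.4% of genes tested) and 3068 at least 2-fold lower (16.1%). The CPM ranges of the groups did not overlap for 2433 genes that were higher (12.7%) and 2503 that were lower (13.1%), counted over all tested genes, called or not, and 7663 of the called genes overlapped between the strains. The genes named for the largest changes of all were taken only from those without overlap, so their separation is part of that choice. The first principal component of the 15 mice separated the strains and held 42.7% of the variance. With library size in place of TMM scaling the overall median shifted to −0.22 and only 32.9% of the calls were higher in CAST/EiJ, against 49.5% with TMM, so that small differences of a uniform direction depend on the scaling.

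The 44 gene lists differed widely in how many members were called and in which direction. Lists of the major urinary proteins, male-biased genes, periportal hepatocyte markers, amino acid catabolism, coagulation, mitochondrial genome transcripts and Y-linked genes (4 tested) held mostly members that were higher in CAST/EiJ, with more than 70% of the tested members called in that direction. At the other end, T and NK cell markers, cholangiocyte markers, red blood cell markers (8 tested), cell cycle genes, interferon-stimulated genes and cholesterol biosynthesis enzymes had at least 80% of their members called lower. The lists are described by their counts, which are to be read against the 32.6% of all tested genes that were higher and the 33.3% that were lower, without a test of a list as a whole. Several lists lay near these shares, with 40% higher and 36% lower for phase II conjugation enzymes, 38.1% and 33.3% for lipid droplet and lipase genes and 36% and 32% for bile acid genes, and their counts are no result about their members.

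**Figure D1:**
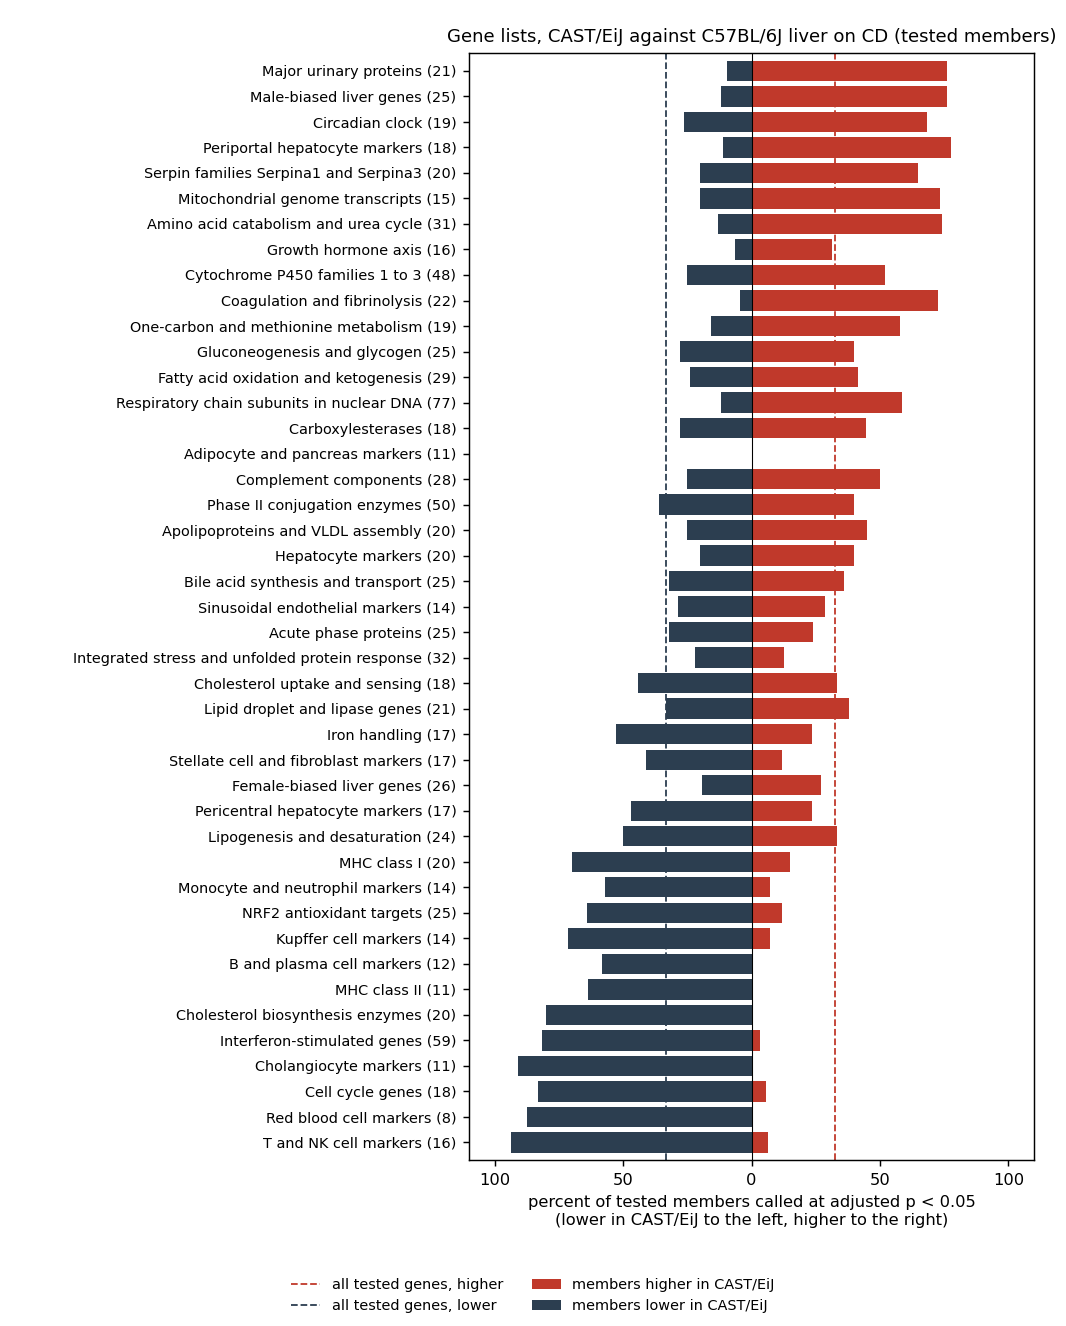
Percent of the tested members of each gene list, except the Y-linked genes, that were called at an adjusted p below 0.05 (x axis; red bars to the right, higher in CAST/EiJ; dark bars to the left, lower), with the number of tested members in brackets and lists sorted by their median log2 fold change. Dashed lines give the share of all tested genes, 32.6% higher and 33.3% lower. Major urinary proteins stand at the top with 76.2% of members higher, and T and NK cell markers at the bottom with 93.8% lower.

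The major urinary proteins gave some of the largest differences, in both directions. Of 21 tested members 16 were higher in CAST/EiJ, each by at least 2-fold, and 2 were lower (4 without C57BL/6J mouse 2), with a median log2 fold change of 4.38. Mup20, which encodes darcin, a male pheromone that females find attractive, had 0.539 to 1.15 CPM in CAST/EiJ (median 0.809) and 209 to 7154 CPM in C57BL/6J (median 5511). The groups did not overlap, although C57BL/6J mouse 2, at 209 CPM, lay far below the other 7, and the log2 fold change was −12.21 ± 0.79 (adjusted p = 1.06e-24). Mup12 showed the opposite, with 5046 to 9673 CPM in CAST/EiJ (median 6265) against 0.0672 to 3.5 CPM in C57BL/6J (median 0.86), a log2 fold change of 13.18 ± 0.67 (adjusted p = 4.27e-31). For Mup17 the level was 1116 to 2306 CPM in CAST/EiJ (median 1399) and 0.0168 to 2.08 CPM in C57BL/6J (median 0.473), with a log2 fold change of 12.25 ± 0.92 (adjusted p = 6.15e-21). Both strains therefore had abundant Mup RNA, assigned to different genes of the cluster on chromosome 4, where Mup20 lies at chr4:62050234-62054158, Mup12 at chr4:60737383-60741326 and Mup17 at chr4:61591929-61595871 (GRCm38). These genes are near copies of each other: 85.4% of the 50-base windows of Mup12, 78.1% of those of Mup17 and 50.5% of those of Mup20 occur elsewhere among the annotated genes of the reference, so which member a CAST/EiJ read was assigned to is uncertain. The summed share of all reads on Mup genes was 1.05% ± 0.216 (n = 7) and 0.835% ± 0.394 (n = 8), and this difference did not pass the test (exact permutation p = 0.231). As a share of the reads mapped it was 1.18% against 0.855% (exact permutation p = 0.0872). As a share of the reads on genes it was 1.53% against 1.06% (exact permutation p = 0.0513). Mup3, with 13.3% of its windows shared, had 6436 to 9849 CPM in CAST/EiJ (median 6892) and 49.7 to 8551 CPM in C57BL/6J (median 5184). Its ranges overlapped, and its log2 fold change of 1.50 ± 0.43 (adjusted p = 0.00177) became 0.14 without C57BL/6J mice 2, 4 and 6 (adjusted p = 0.631).

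Male-biased liver genes were mostly higher in CAST/EiJ, with 19 of 25 members higher and 3 lower and a median log2 fold change of 1.59. The list shares Mup20 with the major urinary proteins, and 10 of its members have at least 20% of their windows shared with other genes. Of the genes named below, Cyp7b1 is also counted among the bile acid genes and Cyp4a12a among the fatty acid oxidation genes. Without C57BL/6J mice 2, 4 and 6, which had the highest sums of cell cycle genes and of monocyte and neutrophil markers, 15 members were higher and 4 lower. Moxd1, a monooxygenase related to dopamine beta-hydroxylase, had 700 to 1396 CPM in CAST/EiJ (median 876) and at most 0.211 CPM in C57BL/6J. Selenbp2, a selenium-binding protein, lay at 1306 to 2262 CPM (median 1705) against 15.4 to 47.1 CPM (median 38.9), a log2 fold change of 5.62 ± 0.30 (adjusted p = 2.47e-29). For both genes the groups were far apart, and 43.9% of the windows of Selenbp2 are shared with other genes, so the placement of its reads is uncertain. Cyp7b1, the oxysterol 7-alpha-hydroxylase of the alternative bile acid pathway, had 1132 to 2031 CPM in CAST/EiJ (median 1524) and 9.01 to 133 CPM in C57BL/6J (median 103), a log2 fold change of 4.44 ± 0.35 (adjusted p = 6.99e-20). The complement regulator Susd4 lay at 106 to 173 CPM (median 134) against 0.437 to 30.8 CPM (median 6.65), with a log2 fold change of 4.82 ± 0.40 (adjusted p = 1.01e-18). Cyp4a12a, an arachidonic acid hydroxylase, had 601 to 926 CPM (median 800) against 5.78 to 170 CPM (median 144), a log2 fold change of 3.07 ± 0.34 (adjusted p = 4.23e-13). In Cyp7b1, Susd4 and Cyp4a12a C57BL/6J mouse 2 was the lowest of the 15 mice, and the strains did not overlap in any of the 3 genes.

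Female-biased liver genes did not follow a single direction, with 7 of 26 members higher and 5 lower and a median log2 fold change of −0.33. The list shares Sult3a1 with the phase II enzymes and Cyp2b9 with the P450 genes described below. The higher members included the largest increase of all named genes. Sult3a1, a sulfotransferase that male C57BL/6J liver hardly expresses, had 1624 to 3078 CPM in CAST/EiJ males (median 2425) and at most 0.184 CPM in C57BL/6J (median 0.0396), a fitted log2 fold change of 15.74 ± 0.87 (adjusted p = 8.82e-29). The P450 Cyp2c69 lay at 51.9 to 394 CPM (median 112) against 0.0736 to 3.97 CPM (median 1.59), and Cyp2c40 at 92.9 to 294 CPM (median 167) against 0.258 to 21.9 CPM (median 3.4). Their log2 fold changes were 7.21 ± 0.62 and 6.03 ± 0.43 (adjusted p = 5.36e-18 and 2.21e-22). Neither P450 overlapped between the strains, and both share more than 50% of their windows with related P450 genes (54.3% and 60.3%). Cyp2b9, a P450 with higher expression in females, had at most 3 counts in any CAST/EiJ mouse and 0.147 to 183 CPM in C57BL/6J (median 0.653), where mouse 2 held 85.9% of the summed CPM. It was not called with limma-voom (log2 fold change −5.90, adjusted p = 0.066), but was called with edgeR (−10.10, adjusted p = 3.06e-07) and DESeq2 (−10.30, adjusted p = 3.09e-18).

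**Figure D2:**
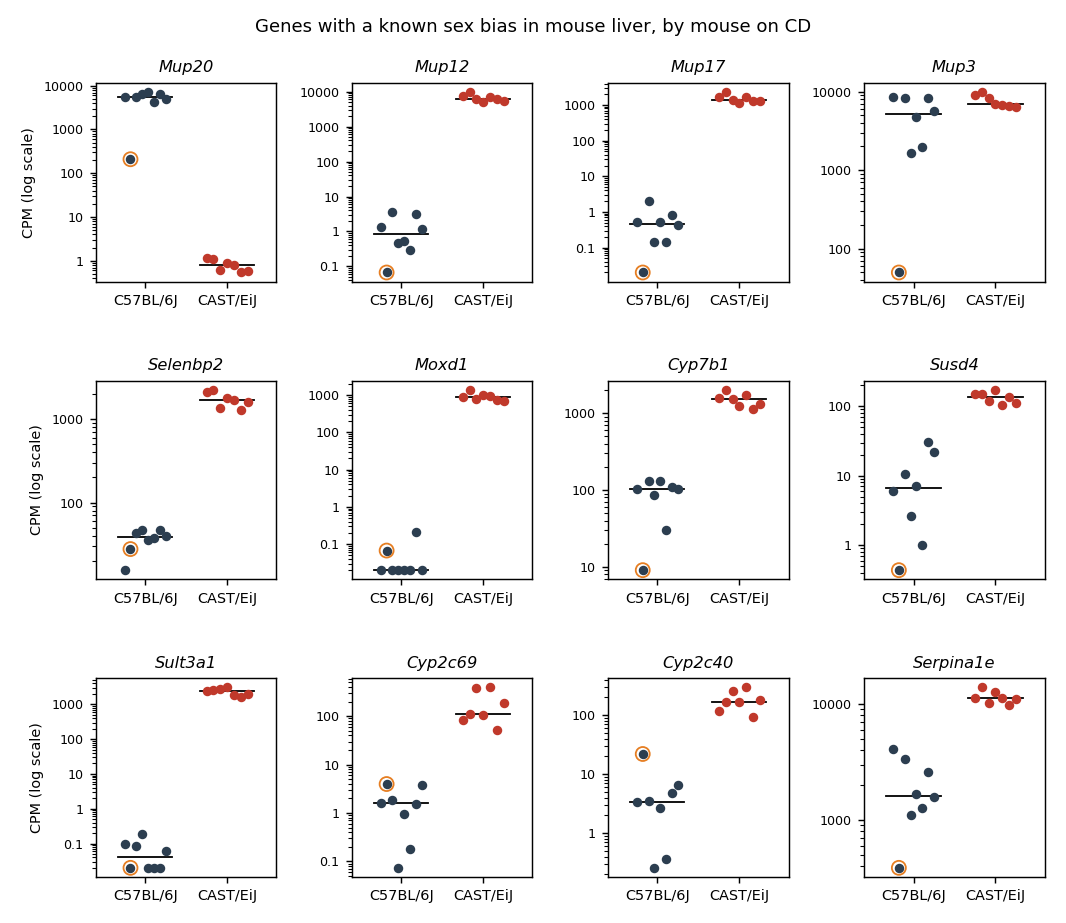
CPM on a log scale of 12 genes with a known sex bias in mouse liver, with 1 point per mouse (dark, 8 C57BL/6J; red, 7 CAST/EiJ), the group median as a line, C57BL/6J mouse 2 circled in orange and values below 0.02 CPM drawn at 0.02. Mup20 is high only in C57BL/6J, where mouse 2 lies at 209 CPM against a median of 5511, whereas the remaining genes except Mup3 are higher in CAST/EiJ without overlap.

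In the growth hormone axis 5 of 16 members were higher (31.2%, against 32.6% of all tested genes) and 1 lower. Igf1, the circulating growth factor that growth hormone induces in liver, had 701 to 1320 CPM in CAST/EiJ (median 1066) and 384 to 549 CPM in C57BL/6J (median 459). Igfals, which encodes the acid-labile subunit that carries IGF1 in plasma, lay at 91.4 to 175 CPM (median 141) against 41.8 to 95.7 CPM (median 54). The log2 fold changes were 1.05 ± 0.11 and 1.23 ± 0.14 (adjusted p = 1.37e-13 and 8.59e-13). Igf1 did not overlap between the strains, while the Igfals ranges touched.

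Enzymes that handle foreign compounds showed a mixture of members near 0 in either strain. Of 48 tested cytochrome P450 genes of families 1 to 3, 25 were higher (19 by at least 2-fold) and 12 lower (7 by at least 2-fold). At least 20% of the windows were shared with other genes for 19 of the 48. The placement of reads among related P450 genes is therefore uncertain. Cyp3a11, the main drug-metabolising P450 of the mouse 3a family, had 137 to 389 CPM in CAST/EiJ (median 214) and 2179 to 5503 CPM in C57BL/6J (median 2816), a log2 fold change of −3.90 ± 0.23 (adjusted p = 7.03e-27). Cyp2c38 lay at 1.94 to 5.25 CPM (median 3.26) against 58.6 to 150 CPM (median 82.8), a log2 fold change of −4.71 ± 0.50 (adjusted p = 1.01e-13). In contrast Cyp2d12 had 34.9 to 47.1 CPM (median 43.4) in CAST/EiJ and 0.092 to 0.538 CPM (median 0.254) in C57BL/6J, a log2 fold change of 7.30 ± 0.26 (adjusted p = 1.09e-41). The ethanol-oxidising Cyp2e1 was less far apart, with 6196 to 8734 CPM (median 7537) against 1563 to 7284 CPM (median 4620) and a log2 fold change of 0.88 ± 0.18 (adjusted p = 1.23e-05). The Cyp2e1 ranges overlapped between the strains.

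Phase II conjugation enzymes were nearly evenly split, with 20 of 50 higher and 18 lower, and this balance turned to 18 and 19 with library size in place of TMM scaling. The glutathione transferase Gstm3 was at 0.103 to 2.93 CPM in CAST/EiJ (median 0.441) and at 53.5 to 634 CPM in C57BL/6J (median 78.1), where mice 2, 4 and 6 had 412 to 634 CPM and the other 5 at most 84.2 CPM. Another transferase, Gstt1, had 3.1 to 5.06 CPM (median 4.07) against 125 to 240 CPM (median 215), with a log2 fold change of −5.63 ± 0.18 (adjusted p = 3.66e-45). Membrane-bound Mgst1 was higher in CAST/EiJ, at 2828 to 3760 CPM (median 3096) against 1153 to 2458 CPM (median 1923), a log2 fold change of 0.74 ± 0.09 (adjusted p = 1.00e-11). Gstm1, an abundant transferase of the same family as Gstm3, was lower but overlapped between the strains, at 885 to 1957 CPM (median 1043) against 1862 to 4173 CPM (median 2618), with −1.31 ± 0.15 (adjusted p = 1.93e-12). Among 18 tested carboxylesterases, hydrolases of esters and lipids, 8 were higher and 5 lower. Ces2b (99.3 to 149 CPM, median 111) and Ces2h (69.3 to 84.3 CPM, median 77.6) were expressed in CAST/EiJ and lay at 0.852 CPM or less in every C57BL/6J mouse. Ces2c was the reverse, at 0.543 to 1.64 CPM (median 0.94) against 12.7 to 27.5 CPM (median 17.6), a log2 fold change of −4.28 ± 0.54 (adjusted p = 6.54e-11). These 3 genes lie in a cluster on chromosome 8, at chr8:104831572-104840093, chr8:105000853-105021178 and chr8:104847068-104854483, and neighbouring Ces3a was higher with 2124 to 2754 CPM (median 2289) against 312 to 1461 CPM (median 1194). Ces2c and Ces3a share 36.1% and 25.6% of their windows with other genes, so the placement of their reads is uncertain.

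Serpins, protease inhibitors and hormone carriers of plasma, were mostly higher in CAST/EiJ. Among the Serpina1 and Serpina3 families and their neighbours, 13 of 20 tested members were higher and 4 lower, and the summed level was 36733 to 43090 CPM against 11980 to 21971 CPM. Serpina1e, an alpha-1-antitrypsin paralog with male bias, had 9765 to 13874 CPM in CAST/EiJ (median 11207) and 388 to 4100 CPM in C57BL/6J (median 1625). Serpina1a, the paralog annotated beside it on chromosome 12, had 36.1 to 88.8 CPM (median 41) against 1622 to 2269 CPM (median 2101), a log2 fold change of −5.37 ± 0.13 (adjusted p = 4.73e-53). The 2 paralogs moved in opposite directions without overlap, and 34.6% and 57.6% of their windows are shared with other members, so the split of reads between them is uncertain. Serpina3k, a kallikrein inhibitor, lay at 12923 to 17352 CPM (median 14954) against 2119 to 6814 CPM (median 4936), and Serpina7, the thyroxine-binding globulin on the X chromosome, at 2.38 to 18.5 CPM (median 3.51) against 113 to 190 CPM (median 142). Serpina7 shares no window with another gene, and its log2 fold change was −4.96 ± 0.31 (adjusted p = 3.46e-25).

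Coagulation and complement followed with smaller differences. In the coagulation and fibrinolysis list 16 of 22 genes were higher and 1 lower (2 without CAST/EiJ mouse 4, C57BL/6J mouse 2 or C57BL/6J mouse 4), although only 2 differed by at least 2-fold, and with library size in place of TMM scaling 10 were higher and 5 lower. Those 2 were Hrg, a plasma glycoprotein that binds heparin and plasminogen (1668 to 2333 CPM, median 1938, against 684 to 1201 CPM, median 904), and the clotting factor F7 (105 to 161 CPM, median 124, against 34.5 to 87 CPM, median 63.1). Their log2 fold changes were 1.10 ± 0.10 and 1.05 ± 0.11 (adjusted p = 1.28e-17 and 1.24e-14), and neither overlapped. Of 28 complement genes 14 were higher and 7 lower with TMM scaling, and 9 and 10 with library size. C6, a component of the membrane attack complex, had 1228 to 2297 CPM in CAST/EiJ (median 1624) against 64 to 306 CPM (median 271), and C8b, another component, 933 to 1226 CPM (median 958) against 111 to 293 CPM (median 225). The log2 fold changes were 2.94 ± 0.22 and 2.25 ± 0.24 (adjusted p = 1.48e-20 and 1.03e-13), with the strains apart in both genes. C4a, the sex-limited paralog of complement C4 with 30.6% of its windows shared, lay at 245 to 388 CPM (median 283) against 2.24 to 49 CPM (median 11.6).

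Genes of cholesterol synthesis were lower in CAST/EiJ. Of 20 enzymes of the pathway from acetyl-CoA to cholesterol none was called higher and 16 were lower, 11 by at least 2-fold, with a median log2 fold change of −1.04, and edgeR's quasi-likelihood test gave the same counts of 0 and 16. DESeq2 also called 0 higher, and 0 were higher at an unadjusted p under 0.05 with limma-voom. Their summed level was 1276 to 1772 CPM in CAST/EiJ and 2159 to 3863 CPM in C57BL/6J, so the sums did not overlap. Hmgcs1, which makes HMG-CoA, had 26 to 68 CPM (median 54.2) against 127 to 438 CPM (median 265), a log2 fold change of −2.27 ± 0.25 (adjusted p = 5.21e-13). Idi1, the isopentenyl diphosphate isomerase, lay at 5.29 to 17.5 CPM (median 9.09) against 29 to 68.1 CPM (median 46.5), and Fdps, the farnesyl diphosphate synthase, at 0.539 to 0.956 CPM (median 0.635) against 5.03 to 11.9 CPM (median 7.96). Near the end of the pathway the sterol desaturase Sc5d had 130 to 273 CPM (median 224) against 435 to 760 CPM (median 560), a log2 fold change of −1.49 ± 0.14 (adjusted p = 2.42e-16). All 4 enzymes separated the strains completely. Of the 20 enzymes, 2 have at least 20% of their windows shared with other genes, so the placement of their reads is uncertain. Among the genes of cholesterol uptake and sensing, Insig1, which retains the SREBP complex in the endoplasmic reticulum, lay at 79.6 to 144 CPM (median 115) against 203 to 405 CPM (median 274). Its log2 fold change was −1.29 ± 0.21 (adjusted p = 1.08e-07), whereas the uptake and sensing list as a whole held 6 higher and 8 lower of 18. In the cohort that both strains shared 6 of the 20 synthesis enzymes were called lower and none higher, with a median log2 fold change of −0.69. CAST/EiJ had the lowest mean of the 7 strains on CD for 14 of the 20 enzymes, beside 21.0% of all tested genes.

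Lipogenic genes were partly lower, with 12 of 24 lower and 8 higher (5 higher without C57BL/6J mice 2, 4 and 6). Scd1, which desaturates stearate to oleate, had 1467 to 5687 CPM in CAST/EiJ (median 2498) and 4711 to 27709 CPM in C57BL/6J (median 16459), a log2 fold change of −2.44 ± 0.26 (adjusted p = 2.01e-13). Malic enzyme, Me1, a source of NADPH for lipid synthesis, had 49.8 to 94.1 CPM (median 70.3) against 125 to 531 CPM (median 353), with −2.16 ± 0.21 (adjusted p = 5.31e-15). Me1 did not overlap between the strains, and Scd1 overlapped only through C57BL/6J mouse 2, at 4711 CPM. Among 21 lipid droplet and lipase genes 8 were higher and 7 lower, and 6 and 9 with library size in place of TMM. Pparg, the lipid-storing nuclear receptor, was at 0.102 to 0.539 CPM (median 0.297) against 5.46 to 16.4 CPM (median 10.5), and Fitm1, a protein of lipid droplet formation, at 0 to 0.385 CPM (median 0.103) against 1.63 to 10.9 CPM (median 8.86). The log2 fold changes were −5.19 ± 0.66 and −6.19 ± 1.05 (adjusted p = 9.47e-11 and 3.03e-07), and neither gene overlapped between the strains.

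Fatty acid oxidation genes gave no stable direction. Of 29 members 12 were higher and 7 lower, but leaving out CAST/EiJ mouse 3, CAST/EiJ mouse 7 or C57BL/6J mouse 2 left 7, 6 and 6 higher, and with library size in place of TMM 5 were higher and 12 lower. Cyp4a14, a fatty acid omega-hydroxylase and target of PPAR alpha, varied within CAST/EiJ, where mice 1, 2 and 4 had 0.505 to 1.09 CPM and the other 4 had 48.4 to 150 CPM. All of these lay below the 391 to 2354 CPM (median 1477) of C57BL/6J, with a log2 fold change of −6.58 ± 0.95 (adjusted p = 4.11e-09). The summed fatty acid oxidation list was 9814 to 13472 CPM in CAST/EiJ mice 1, 2 and 4 and 19407 to 23719 CPM in the other 4. In C57BL/6J this sum was 5760 to 17698 CPM. Bile acid genes were also split, with 9 of 25 tested members higher and 8 lower, or 6 and 10 with library size scaling. Beside the higher Cyp7b1, the basolateral exporter Abcc3 was lower, at 17.7 to 31.3 CPM (median 27.5) against 145 to 252 CPM (median 214), a log2 fold change of −3.04 ± 0.17 (adjusted p = 2.34e-28). Of 20 apolipoprotein and VLDL assembly genes 9 were higher and 5 lower, which turned to 6 and 8 with library size scaling. In this list Pltp, the phospholipid transfer protein, lay at 11.8 to 18 CPM (median 13.6) against 20.1 to 146 CPM (median 55.1), without overlap.

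**Figure D3:**
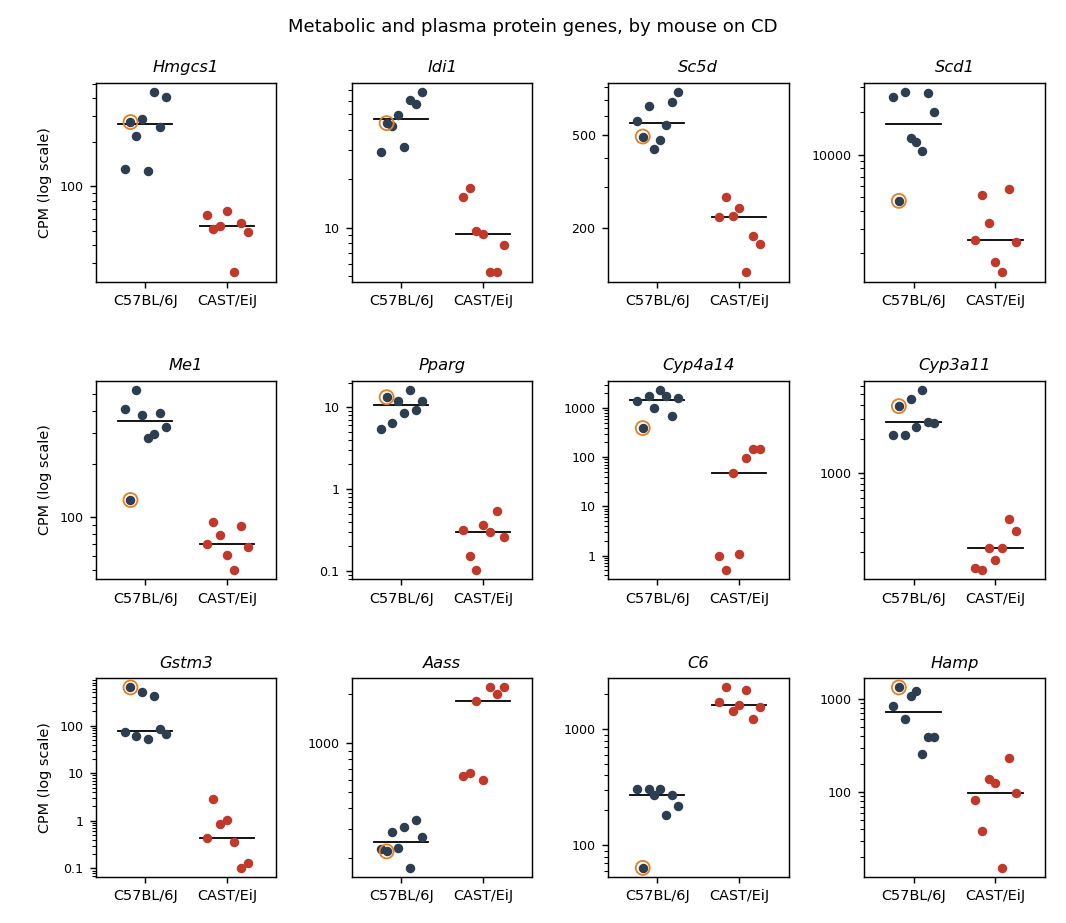
CPM on a log scale of 12 metabolic and plasma protein genes, with 1 point per mouse (dark, 8 C57BL/6J; red, 7 CAST/EiJ), the group median as a line and C57BL/6J mouse 2 circled in orange. Aass and C6 are higher in CAST/EiJ and the other 10 genes lower, and only Scd1 overlaps between the strains (1467 to 5687 against 4711 to 27709 CPM).

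Amino acid catabolism and the urea cycle were higher in CAST/EiJ, with 23 of 31 tested members higher and 4 lower and a median log2 fold change of 0.51. Aass, which starts lysine breakdown, had 599 to 2196 CPM in CAST/EiJ (median 1805) and 173 to 339 CPM in C57BL/6J (median 249), a log2 fold change of 2.30 ± 0.17 (adjusted p = 3.80e-21). CAST/EiJ mice 1, 2 and 4, the same 3 mice that were lowest for Cyp4a14, lay at 599 to 662 CPM and the other 4 at 1805 CPM or more. The summed amino acid list was also lowest within CAST/EiJ in these 3 mice, at 22639 to 24043 CPM against 31404 to 41264 CPM. All of these sums lay above the 12853 to 21583 CPM of C57BL/6J. The urea cycle lyase Asl had 721 to 1378 CPM (median 991) against 229 to 452 CPM (median 272), with 1.82 ± 0.12 (adjusted p = 7.37e-24), and Cps1, which makes carbamoyl phosphate, 4094 to 8606 CPM (median 5544) against 2162 to 3934 CPM (median 3298), with 0.86 ± 0.14 (adjusted p = 1.51e-07). Both separated the strains, though the Cps1 log2 fold change was 0.26 within cohort 1. Periportal hepatocyte markers, a list that shares Asl and Cps1 with the urea cycle, were higher for 14 of 18 members and lower for 2. Pericentral markers were higher for 4 and lower for 8 of 17. The pericentral sums did not follow these counts, at 9657 to 12579 CPM in CAST/EiJ (median 11041) against 3249 to 12344 CPM in C57BL/6J (median 8367). Within cohort 1 the median log2 fold change of the pericentral markers was 0.32, against −0.36 in the main fit. Of the 8 lower pericentral markers 4 remained in number without CAST/EiJ mouse 5, and 5 without C57BL/6J mouse 3, while 2 in place of 4 were higher without C57BL/6J mouse 2. In one-carbon metabolism 11 of 19 tested members were higher and 3 lower. The summed one-carbon list in CAST/EiJ mice 1, 2 and 4, at 8551 to 10140 CPM, lay within the C57BL/6J range of 6236 to 11762 CPM. In the other 4 CAST/EiJ mice the sum was 13688 to 15048 CPM. Nnmt, which methylates nicotinamide, had 78.6 to 328 CPM (median 165) against 8.33 to 81.7 CPM (median 14.5), with 3.17 ± 0.37 (adjusted p = 5.57e-12), and overlapped only through C57BL/6J mouse 2, which had 81.7 CPM.

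Antioxidant genes driven by NRF2, a list that shares Gstm3 with the phase II enzymes, were lower for 16 of 25 members and higher for 3. Their median log2 fold change was −0.70. Cbr1, a carbonyl reductase, had 5.34 to 15.7 CPM in CAST/EiJ (median 8) and 39.6 to 133 CPM in C57BL/6J (median 62.1), with −3.07 ± 0.20 (adjusted p = 6.27e-24) and no overlap. Iron handling was lower for 9 of 17 tested members and higher for 4. Its hormone hepcidin, Hamp, which blocks iron export, lay at 15.5 to 232 CPM (median 98.6) against 259 to 1321 CPM (median 724), with −3.05 ± 0.42 (adjusted p = 7.71e-10), so that the highest CAST/EiJ mouse stayed just below the lowest C57BL/6J mouse. The acute phase list, which also holds Hamp, had 6 higher and 8 lower members of 25, and its sum in CAST/EiJ mouse 4 was 47279 CPM against 22528 to 27079 CPM in the other 6. In the integrated stress and unfolded protein response list 4 of 32 were higher and 7 lower, fewer than the share of all genes in both directions. Gluconeogenesis and glycogen genes were split, with 10 of 25 higher and 7 lower, or 6 and 10 with library size scaling.

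Clock genes were higher for 13 of 19 members and lower for 5, with a median log2 fold change of 0.94, and single mice decided the lower ones, of which 2 remained in number without CAST/EiJ mouse 1 or C57BL/6J mouse 2 and 3 without CAST/EiJ mouse 2 or 4 or C57BL/6J mouse 1, 3, 5 or 6. Per3, a period gene, had 25.8 to 56.4 CPM in CAST/EiJ (median 42.3) and 2.31 to 48.5 CPM in C57BL/6J (median 10.8), with 2.18 ± 0.32 (adjusted p = 9.01e-09). Ciart, a repressor of the clock, lay at 11.2 to 34.5 CPM (median 13.9) against 0.255 to 9.68 CPM (median 1.4), with 3.57 ± 0.50 (adjusted p = 1.45e-09), and Npas2, a partner of BMAL1, at 0.103 to 0.826 CPM (median 0.343) against 0.422 to 17.8 CPM (median 2.09), with −3.15 ± 0.78 (adjusted p = 2.61e-04). These genes also moved with the cohort within C57BL/6J: the 3 mice of cohort 1 had 2.31 to 3.03 CPM of Per3 and 10.8 to 17.8 CPM of Npas2, and the 5 mice of cohort 2 had 6.77 to 48.5 CPM and 0.422 to 2.23 CPM. Within cohort 1 the single CAST/EiJ mouse had 49.9 CPM of Per3, 11.3 CPM of Ciart and 0.343 CPM of Npas2, against 2.31 to 3.03, 0.255 to 0.941 and 10.8 to 17.8 CPM in the 3 C57BL/6J mice. With limma-voom, which there assumed this mouse to vary like the other groups, the log2 fold changes in cohort 1 were 4.21, 4.39 and −5.19 (adjusted p = 5.72e-07, 0.00254 and 0.00252). All mice were killed in the early afternoon after a morning fast according to the study's methods, and the time of each mouse was not analysed here.

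Interferon-stimulated genes were lower in CAST/EiJ as a group. Of 59 members, effectors that block viral and bacterial growth after interferon binds its receptor, 48 were lower (30 by at least 2-fold) and 2 higher, with a median log2 fold change of −1.09. The summed level was 900 to 1225 CPM in CAST/EiJ and 1408 to 2904 CPM in C57BL/6J. Without C57BL/6J mice 2, 4 and 6 the count of lower members was 44, with cohort as a term in the fit 40, and within cohort 1 it was 17. CAST/EiJ was the lowest of the 7 strains on CD for 31 of the 59. Interferon regulatory factors bind a known sequence element, written GAAANNGAAA, which was searched on both strands of the promoters. In the RefSeq promoter table (GRCm38.p6, 250 bases before to 50 after each start) 40 of the 59 members were found, and 25 of them held the element (62.5%), against 1079 of 27025 promoters in the table (3.99%). This share goes with the choice of interferon-stimulated genes for the list. It was not split by the direction of the strain difference, so it says nothing about that difference. Of the members with a match, the 4 with the largest fall are given here as 100 bases of the C57BL/6J reference, chosen after their values were seen. They are written 5′ to 3′ on the strand of the gene, with the element in capitals (in Trim30d on the opposite strand). The sequence in CAST/EiJ was not analysed here.
Tgtp2, chr11:49064228-49064327, minus strand: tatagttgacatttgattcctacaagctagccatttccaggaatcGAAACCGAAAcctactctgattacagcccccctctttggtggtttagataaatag
Trim30d, chr7:104507836-104507935, minus strand: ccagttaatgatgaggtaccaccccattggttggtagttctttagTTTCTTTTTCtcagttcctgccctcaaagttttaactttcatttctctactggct
Isg15, chr4:156200842-156200941, minus strand: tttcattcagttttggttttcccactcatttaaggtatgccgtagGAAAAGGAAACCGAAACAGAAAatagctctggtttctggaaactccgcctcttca
Cxcl10, chr5:92349040-92349139, minus strand: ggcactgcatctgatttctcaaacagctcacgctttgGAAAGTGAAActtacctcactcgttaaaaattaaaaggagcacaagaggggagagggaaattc

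The levels of these genes are as follows. Tgtp2, a GTPase that attacks the vacuoles of intracellular pathogens, had no count in 5 CAST/EiJ mice and at most 0.0517 CPM in the others, against 1.75 to 11.5 CPM in C57BL/6J (median 3.4). Tgtp2 shares 86.6% of its windows with other genes, so its level is uncertain. Trim30d, a member of the Trim30 family of inflammasome regulators, lay at 0.672 to 0.923 CPM (median 0.77) against 4.92 to 13.6 CPM (median 10.7), with −3.66 ± 0.25 (adjusted p = 2.30e-23). Isg15, a ubiquitin-like modifier, had 0.305 to 0.863 CPM (median 0.616) against 2.97 to 7.25 CPM (median 4.06), with −2.92 ± 0.40 (adjusted p = 7.32e-10). Cxcl10, a chemokine that attracts T cells, had 0.205 to 0.711 CPM (median 0.517) against 1.53 to 7.73 CPM (median 2.92), with −2.89 ± 0.45 (adjusted p = 3.87e-08). None of the 4 overlapped between the strains. Iigp1, another pathogen-restricting GTPase, had 0.0258 to 0.245 CPM in CAST/EiJ (median 0.162) and 165 to 780 CPM in C57BL/6J (median 433), a log2 fold change of −11.53 ± 0.66 (adjusted p = 8.85e-28). Ifi27l2b, an interferon-inducible member of the Ifi27 family, lay at 0 to 0.103 CPM against 4.37 to 31.4 CPM (median 10.8). Both had few or no assigned reads in every CAST/EiJ mouse, and whether CAST/EiJ reads of these genes failed to map to the reference was not tested. In contrast Mx1, an antiviral GTPase that carries a deletion in C57BL/6J, had 1.48 to 2.52 CPM (median 2.03) against 1.04 to 2.69 CPM (median 1.65). Mx1 did not pass the test (log2 fold change 0.27 ± 0.28, adjusted p = 0.4).

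Antigen presentation genes were lower as well. In the MHC class I list 14 of 20 were lower and 3 higher, and in the class II list 7 of 11 were lower and none higher, with 9 lower and 0 higher by edgeR's quasi-likelihood test, 0 higher by DESeq2 and 0 higher at an unadjusted p under 0.05 with limma-voom. The class I sums did not overlap, at 4383 to 4632 CPM in CAST/EiJ against 5531 to 8038 CPM in C57BL/6J. The class II sums overlapped, at 137 to 209 CPM in CAST/EiJ (median 167) against 133 to 657 CPM in C57BL/6J (median 236). H2-T22, a non-classical class I gene, had 7.33 to 13.8 CPM (median 9.17) against 63 to 102 CPM (median 81.7), and H2-Q7, of the same kind, 5.91 to 11.5 CPM (median 9.16) against 26.7 to 129 CPM (median 61.7). The log2 fold changes were −2.93 ± 0.11 and −2.87 ± 0.21 (adjusted p = 7.86e-39 and 5.43e-22). Both were apart between the strains, with 34.5% and 26.4% of their windows shared with other class I genes, which are also among the most variable genes between strains. H2-Ea-ps, the class II E alpha gene that C57BL/6J does not express because of a deletion, had 15.9 to 20.6 CPM in CAST/EiJ and at most 2 counts in any C57BL/6J mouse. Against a floor of 3 counts per library its CAST/EiJ mean of 18.4 CPM was at least 291-fold higher.

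Most members of the leukocyte marker lists were lower in CAST/EiJ. T and NK cell markers were lower for 15 of 16 and higher for 1, with a median log2 fold change of −2.22, at summed levels of 4.85 to 13.4 CPM against 7.63 to 21 CPM, which overlap. Kupffer cell markers were lower for 10 of 14 and higher for 1, with sums of 359 to 548 CPM against 542 to 975 CPM, monocyte and neutrophil markers lower for 8 of 14 and higher for 1, with sums of 29.3 to 55.3 CPM against 68.9 to 335 CPM, and B and plasma cell markers lower for 7 of 12 and higher for none (limma-voom, with 0 at an unadjusted p under 0.05), with 1 higher by edgeR and 1 by DESeq2. The sums of the B and plasma cell markers did not follow these counts, at 20.9 to 120.5 CPM in CAST/EiJ against 25 to 95.9 CPM in C57BL/6J, and CAST/EiJ mouse 4 was the highest of all 15 mice. The single gene higher among the Kupffer markers was no longer called when CAST/EiJ mouse 3, 4, 5, 6 or 7 or C57BL/6J mouse 2 was left out. Marco, a scavenger receptor of Kupffer cells, had 0.432 to 1.41 CPM (median 0.569) against 5.97 to 62.5 CPM (median 11.1), with −4.35 ± 0.79 (adjusted p = 1.19e-06), and Adgre1, the macrophage antigen F4/80, 5.27 to 8.84 CPM (median 6.95) against 16.8 to 38.4 CPM (median 28.4), with −1.90 ± 0.26 (adjusted p = 7.62e-10). Lysozyme, Lyz2, lay at 21.4 to 34.3 CPM (median 24.5) against 55.2 to 262 CPM (median 81.7), and the integrin Itgax at 0.152 to 0.486 CPM (median 0.258) against 0.865 to 20.9 CPM (median 2.46), in both cases with C57BL/6J mouse 2 highest. These 4 myeloid genes did not overlap between the strains. Trac, the constant region of the T cell receptor alpha chain, had 0 to 0.417 CPM (median 0.0486) against 0.464 to 1.61 CPM (median 1.36), whereas Cd4, also expressed by some myeloid cells, was higher with 3.05 to 9.22 CPM (median 4.07) against 0.727 to 1.81 CPM (median 1.19) and a log2 fold change of 1.96 ± 0.25 (adjusted p = 5.83e-11). How much of the lower interferon and MHC signal moves with these leukocyte markers was not tested.

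Cell cycle, bile duct and stellate cell lists depended in part on a few C57BL/6J mice. Cell cycle genes were lower for 15 of 18 and higher for 1, cholangiocyte markers lower for 10 of 11, and stellate cell and fibroblast markers lower for 7 of 17 and higher for 2. Leaving out C57BL/6J mice 2, 4 and 6 left 12, 6 and 3 lower, and leaving out CAST/EiJ mouse 5 left 1 stellate cell marker higher. Cdk1, the kinase of mitosis, had 0.177 to 0.508 CPM in CAST/EiJ (median 0.308) and 1.12 to 15.3 CPM in C57BL/6J (median 1.61), with −3.02 ± 0.46 (adjusted p = 1.44e-08). Spp1, osteopontin, lay at 14.8 to 29 CPM (median 20.6) against 32.7 to 369 CPM (median 42), and Col1a1, collagen type I, at 2.67 to 7.78 CPM (median 2.99) against 6.5 to 89.4 CPM (median 8). The highest value of all 3 genes was in C57BL/6J mouse 2, and Col1a1 overlapped between the strains and was no longer called without mice 2, 4 and 6 (log2 fold change −1.03, against −1.88 ± 0.55 and adjusted p = 0.00205 with all mice). Red blood cell markers were lower for 7 of 8 tested members, but 3 or 4 when CAST/EiJ mouse 1, 2 or 3 or C57BL/6J mouse 5, 6 or 8 was left out. Sinusoidal endothelial markers were higher for 4 and lower for 4 of 14, and 1 to 2 were higher without CAST/EiJ mouse 5 or 7 or C57BL/6J mouse 2. For adipocyte and pancreas markers 0 of 11 tested members were called with limma-voom, 0 at an unadjusted p under 0.05, against 6 higher and 3 lower with edgeR and 0 higher and 2 lower with DESeq2, with sums of 6.84 to 165 CPM against 10.8 to 79 CPM. Hepatocyte markers had overlapping sums, 149885 to 182101 CPM against 148625 to 170940 CPM, with 8 of 20 members higher and 4 lower, or 5 and 7 with library size scaling.

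**Figure D4:**
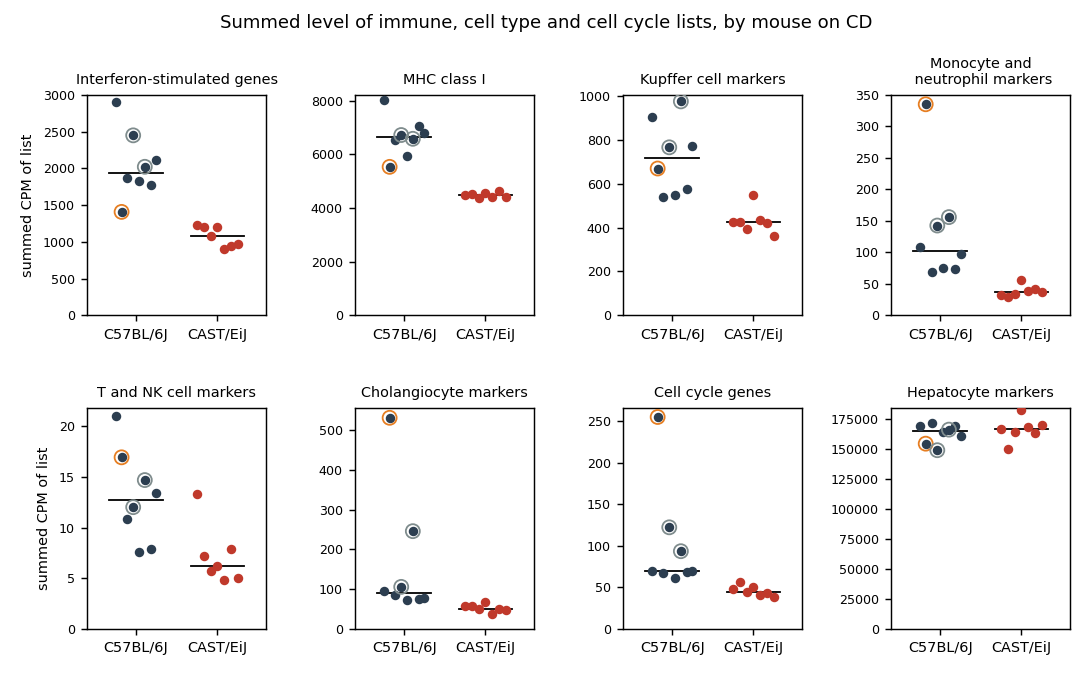
Summed CPM per mouse of 8 gene lists on linear axes from 0, with 1 point per mouse (dark, 8 C57BL/6J; red, 7 CAST/EiJ), the group median as a line and C57BL/6J mouse 2 circled in orange and mice 4 and 6 in grey. The interferon-stimulated sums lie at 900 to 1225 CPM in CAST/EiJ, below all C57BL/6J mice (1408 to 2904 CPM), and C57BL/6J mouse 2 is the highest of all mice for cell cycle, cholangiocyte and monocyte and neutrophil genes.

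Genes with the largest differences also included regulators outside these lists. Camk1d, a calcium-dependent kinase, had 0.96 to 2.02 CPM in CAST/EiJ (median 1.28) and 54.1 to 152 CPM in C57BL/6J (median 106), with −6.18 ± 0.32 (adjusted p = 6.98e-31). Cyclin D1, Ccnd1, which drives entry into the cell cycle, lay at 4.45 to 6.93 CPM (median 5.47) against 46.9 to 176 CPM (median 109), with −4.16 ± 0.35 (adjusted p = 2.14e-18), and Slc22a30, a member of the organic anion transporter family, at 1.68 to 3.26 CPM (median 1.85) against 62.8 to 141 CPM (median 106), with −5.63 ± 0.23 (adjusted p = 5.31e-38). In the other direction Pus7l, a putative pseudouridine synthase at chr15:94522688-94543547, had 37.5 to 505 CPM (median 123) against 1.36 to 2.03 CPM (median 1.72), with 6.12 ± 0.35 (adjusted p = 3.46e-28), and CAST/EiJ mouse 5 was the highest. Eno1b, a gene with 85.2% of its windows shared with other genes, had 57.4 to 70.5 CPM (median 60.5) against 1.41 to 2.24 CPM (median 1.68), and its reads cannot be told with certainty from those of its near copies.

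Nuclear genes of the respiratory chain shifted by small amounts. Of 77 subunits 45 were higher and 9 lower with TMM scaling, none of the higher ones by 2-fold and with a median log2 fold change of 0.21, but 21 were higher and 22 lower with library size alone, so the direction of the list depended on the scaling. Ndufv2, a core subunit of complex I, had 107 to 125 CPM in CAST/EiJ (median 117) and 60.9 to 79.2 CPM in C57BL/6J (median 69.1), with 0.74 ± 0.05 (adjusted p = 8.49e-22). Cox7a2l, which joins complexes III and IV into supercomplexes and for which C57BL/6J is known to carry a shortened allele, had 15.5 to 19.9 CPM (median 16.8) against 59.3 to 86.6 CPM (median 73.6), with −2.07 ± 0.06 (adjusted p = 7.74e-48). Ndufs5, another complex I subunit, lay at 8.16 to 10.9 CPM (median 9.73) against 25 to 31.2 CPM (median 28), with −1.57 ± 0.07 (adjusted p = 4.15e-34). The 3 genes were far apart relative to their spread, and Cox7a2l and Ndufs5 share 13.8% and 21.7% of their windows with other genes. Nnt, the transhydrogenase of the inner membrane that lacks several exons in C57BL/6J, had 80.6 to 96.5 CPM (median 93.6) against 58 to 80.9 CPM (median 66.7), with 0.47 ± 0.07 (adjusted p = 3.08e-09). The Nnt ranges met at 80.6 and 80.9 CPM, and another annotated Nnt gene overlaps it and shares 46.9% of its windows.

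Transcripts of the mitochondrial genome did not move together. Of 15 genes 11 were higher and 3 lower, while the share of all reads on these genes was lower in CAST/EiJ, at 5.3% ± 0.171 (n = 7) against 6.48% ± 0.697 (n = 8; exact permutation test, adjusted p = 8.70e-04), and did not differ detectably as a share of the reads on genes (7.69% ± 0.262 against 8.2% ± 0.915, n = 7 and 8, exact permutation p = 0.184). The cytochrome b gene mt-Cytb had 21763 to 25858 CPM in CAST/EiJ (median 22879) and 10626 to 17954 CPM in C57BL/6J (median 13604), with 0.76 ± 0.09 (adjusted p = 9.57e-12), and mt-Co1, a core subunit of complex IV, 12052 to 13676 CPM (median 12844) against 18101 to 26425 CPM (median 21583), with −0.76 ± 0.07 (adjusted p = 3.17e-16). Both separated the strains, in opposite directions, and 51.1% of the windows of mt-Co1 recur elsewhere in the annotated genes. The complex I gene mt-Nd3 had 83.9 to 123 CPM (median 95.2) against 1.58 to 3.08 CPM (median 1.84), with 98% of its windows shared with other genes. For mt-Atp8, a short subunit gene that overlaps mt-Atp6 on the same strand, the levels were 13.2 to 26.7 CPM (median 20.8) against 1.26 to 3.15 CPM (median 1.71). For these last genes the level in C57BL/6J counts only reads that could be assigned to a single place and gene, and a difference in that assignment was not tested.

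Some genes had few or no counts in one strain. By the rule of at most 3 counts in every mouse of one group and a mean of at least 5 CPM in the other, 14 genes were near 0 in C57BL/6J (6 protein coding, 7 pseudogenes) and 16 near 0 in CAST/EiJ (13 protein coding, 1 pseudogene). Of the 6 protein-coding genes near 0 in C57BL/6J, 5 also had at most 3 counts in some CAST/EiJ mice: the muscle genes Acta1, Mb, Myh2 and Ckm in 3 mice each and the pancreatic Ctrb1 in 5. Of the 13 near 0 in CAST/EiJ, Cyp11b1, Cyp11a1, Akr1b7 and Cyp2b9 had 85.9 to 100% of their C57BL/6J sum in mouse 2. These 9 genes therefore reached the rule through a few mice. Gsdma3, a gasdermin, the family of pore-forming proteins of cell death, had 50 to 111 CPM in CAST/EiJ (median 81.8) and at most 1 count in any C57BL/6J mouse. Its CAST/EiJ mean of 79.6 CPM ± 19.5 (SD, n = 7) was at least 1259-fold higher than the floor of 3 counts in a C57BL/6J library, 0.0633 CPM. Wfdc17, a small secreted protein of macrophages, had 7.02 to 13.6 CPM in C57BL/6J (median 10.4) and at most 1 count in any CAST/EiJ mouse, so it was at least 128-fold lower in CAST/EiJ on the floor of 0.0809 CPM. Adgrf1, an adhesion G protein-coupled receptor, lay at 2.79 to 16.7 CPM in C57BL/6J (median 11.5), at least 128-fold above the same floor, and Erc2, a scaffold protein of neuronal active zones, at 6.46 to 8.09 CPM (median 7.28), at least 90.2-fold above it. For Acta1 and Mb, which encodes myoglobin, the CAST/EiJ signal of up to 134 and 34.4 CPM came from the 4 mice of cohort 4, and within cohort 1 both log2 fold changes were negative (−0.93 and −0.65) and not called.

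Pseudogenes were called higher more often than lower, unlike protein-coding genes. Processed pseudogenes were higher in CAST/EiJ for 45.3% and lower for 12.4% of 1129, and unprocessed pseudogenes higher for 56.6% and lower for 17.6% of 159, whereas protein-coding genes were higher for 32.5% and lower for 35% of 14902. Genes with at least 20% of their windows shared were higher for 40.4% and lower for 24.4% of 2018, against 30.6% and 34.9% of the 10170 genes without a shared window. Among protein-coding genes alone these shares were close, at 32.6% higher and 38.1% lower of 876 with at least 20% shared and 31.7% and 35.4% of 8227 without a shared window. Long intergenic RNAs were more often lower, 315 against 221 of 777. These are counts over genes of the same 15 mice and are given without a test. The part that the match of each strain to the reference has in them was not tested.

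The same contrast was measured in 16 other mice, 8 per strain, fed WD. There 12860 genes were called (67.3%), and 10021 genes were called in the same direction on both diets, 79.6% of the CD calls and 77.9% of the WD calls, while 184 were called in opposite directions. Of the 5442 genes that differed by at least 2-fold on CD, 5290 (97.2%) had the same sign on WD, and 4293 differed by at least 2-fold in the same direction on both diets (78.9% of the CD set and 77% of the 5574 in the WD set). Reads of the WD mice were aligned to the same C57BL/6J reference, and the part that mapping has in these shared directions was not tested. A difference between the diets in the strain contrast itself was called for 2470 genes (12.9%), 1232 toward higher and 1238 toward lower values of CAST/EiJ on WD. Interferon-stimulated genes were lower for 48 of 59 and higher for 2 on WD too, with a median of −1.48. Cholesterol synthesis enzymes were lower for 12 of 20 and higher for 1, with a median of −1.15. Some other lists differed between the diets. On WD fatty acid oxidation genes were higher for 4 and lower for 14 of 29, and lipid droplet and lipase genes for 2 and 11 of 21. Gluconeogenesis genes were higher for 3 and lower for 8 of 25, pericentral markers for 6 and 2 of 17, and B and plasma cell markers for 3 and 3 of 12.

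Single genes of this interaction are named where the CD contrast was described above. Cyp3a11 changed most among the metabolic genes, from −3.90 on CD to −0.76 on WD (interaction adjusted p = 5.65e-11). The Mup17 difference was 12.25 on CD and 6.29 on WD (interaction adjusted p = 1.06e-05). Ciart went from 3.57 to 0.78 (interaction adjusted p = 7.23e-04), Nnmt from 3.17 to 1.29 (0.00765), C4a from 4.81 to 3.11 (0.0033) and Aass from 2.30 to 1.35 (0.00356), so these genes were less far apart on WD. Serpina7, in contrast, was farther apart on WD, at −6.95 against −4.96 (interaction adjusted p = 0.00523). By comparison Iigp1 (−11.53 and −11.56), Sult3a1 (15.74 and 15.02) and Abcc3 (−3.04 on both diets) differed by similar amounts in both sets of mice, and their interaction was not called (adjusted p = 0.985, 0.748 and 0.994).

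**Figure D5:**
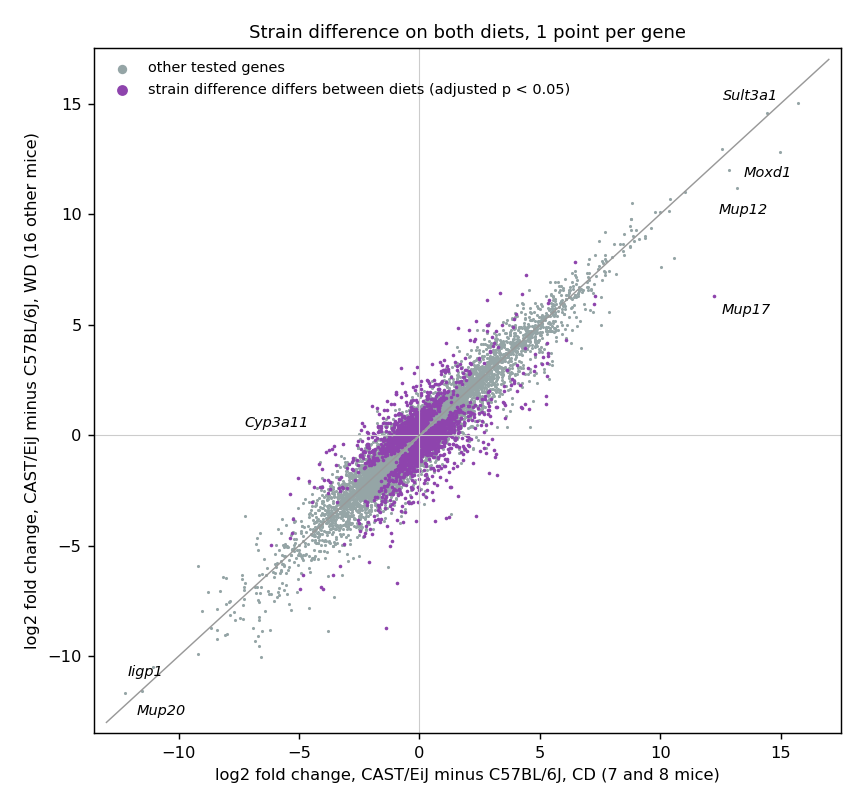
Log2 fold change of CAST/EiJ against C57BL/6J on WD (y axis, 16 mice) and on CD (x axis, 15 mice), with 1 point per tested gene, the diagonal of equal values and, in purple, the 2470 genes whose strain difference differed between the diets. Of the genes that differed by at least 2-fold on CD, 97.2% have the same sign on WD, and Mup17 (12.25 and 6.29) and Cyp3a11 (−3.90 and −0.76) lie off the diagonal.

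Among the 7 strains on CD, CAST/EiJ had the highest group mean for 4376 of the tested genes (22.9%) and the lowest for 4006 (21.0%), and C57BL/6J the highest for 3276 (17.1%) and the lowest for 2511 (13.1%). CAST/EiJ was the highest for Sult3a1, Mup12, Moxd1, Selenbp2, Cyp7b1, Cyp2d12, Ces2b, Serpina1e, Aass, Asl, C6, Igf1 and Ndufv2, while C57BL/6J was the lowest of the strains for Moxd1, Cyp7b1, Cyp2d12, Aass, Igf1 and Ndufv2. For Mup20, Gstt1, Scd1, Pparg, Iigp1, Tgtp2, Isg15, Cxcl10, H2-T22 and Cox7a2l CAST/EiJ was the lowest, and for Mup20, Pparg, Tgtp2, Cxcl10, H2-T22 and Cox7a2l C57BL/6J was the highest. H2-Ea-ps was intermediate in CAST/EiJ, which had the third highest mean of the strains, and Cyp3a11, Cyp4a14 and Gstm3 were lower still in another strain than in CAST/EiJ.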

How the data were processed

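Livers of 93 male mice were profiled by RNA sequencing on the BGISEQ-500 platform. Per the labels, the study's methods and the submitters' processing notes, the authors aligned the reads with STAR 2.7.1a to the C57BL/6J reference (GRCm38, mm10), also used STAR to count reads per gene, and deposited these raw counts. The annotation release and the strand setting are not given in the sources used here, so overlapping and antisense genes are uncertain. Rows of reads that were unmapped, multiply mapped, ambiguous or outside genes were kept out of library sizes and tests, and their shares were tested with exact permutation tests over the 15 mice (6435 arrangements).

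Counts of all 93 mice in 14 groups of strain and diet were filtered (filterByExpr, minimum count 10), scaled with TMM factors and fitted with limma-voom (R 4.3.3, limma 3.58.1, edgeR 4.0.16). The contrast was CAST/EiJ CD minus C57BL/6J CD, with Benjamini-Hochberg adjustment and a call at 0.05, and the interaction with diet came from the same fit. Groups and cohorts came from the labels, and mouse numbers only name mice in accession order. The p-values measure the spread between mice, which the labels list as separate samples. A floor of 3 counts per library covers counting error only. Shared 50-base windows were counted among the transcripts of the GENCODE annotation of GRCm38 (105 genes of the table had no annotation), and motifs in the RefSeq promoter table. The code was tested on simulated data with 200 changed genes.

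The comparison, its members and the 44 gene lists were chosen with earlier results of these data known. Named genes were the 12 largest called increases and the 12 largest decreases among protein-coding genes whose groups did not overlap and whose average log2 CPM reached 3, for each list the 3 called members with the largest change and the 2 with the highest level, genes near 0 in one strain, the 10 most abundant genes, and Nnt, Mx1 and Y-linked genes. Some genes that this rule gave are not reported here. Trim30d, Isg15 and Cxcl10 were chosen after their values were seen. Alternatives were edgeR's quasi-likelihood test, DESeq2 1.42.0, other scalings and filters, only the 15 mice, cohort or RNA integrity (RIN) as a term, cohort 1 only, sample weights, leaving out each mouse and, chosen after seeing the data, leaving out C57BL/6J mice 2, 4 and 6 or CAST/EiJ mice 2, 4 and 6.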

Additional observations from a re-analysis of the deposited data

Results flagged for a closer look

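Among the genes named above, 194 groups of 1 gene and 1 strain were examined for a mouse whose gap to its nearest neighbour exceeded Dixon's 95% critical value, and 36 held such a mouse. Chance alone flags about 1 in 20 groups if values are normally spread and groups independent. Here all groups came from the same 15 mice and some values lay near 0, so that rate is only a rough guide. C57BL/6J mouse 2 was the one apart in 10 of the 36 groups: it was lowest for Mup20 (209 CPM) and Abcc3 (145 CPM) and highest for Cyp2b9 (183 CPM), Cyp2c40 (21.9 CPM), Lyz2 (262 CPM), Itgax (20.9 CPM), Cdk1 (15.3 CPM), Spp1 (369 CPM), Col1a1 (89.4 CPM) and Nnmt (81.7 CPM). The other C57BL/6J mice that stood apart were highest in their group: mouse 1 for Tgtp2 (11.5 CPM), mouse 3 for Mup17 (2.08 CPM), Ces2b (0.495 CPM) and Acta1 (0.0412 CPM), mouse 6 for Cyp2c38 (150 CPM) and Marco (62.5 CPM), and mouse 7 for Moxd1 (0.211 CPM), Asl (452 CPM) and Ciart (9.68 CPM). In CAST/EiJ mouse 1 was highest for Trac (0.417 CPM), Cd4 (9.22 CPM) and Adgrf1 (0.0245 CPM). Mouse 2 was highest for Gstm1 (1957 CPM), Gstm3 (2.93 CPM), Mgst1 (3760 CPM), C4a (388 CPM) and Slc22a30 (3.26 CPM) and lowest for Nnt (80.6 CPM). Mouse 4 was highest for Cyp2b9 (0.0729 CPM), Marco (1.41 CPM) and F7 (161 CPM), mouse 5 for mt-Cytb (25858 CPM) and Pus7l (505 CPM), mouse 6 for Acta1 (134 CPM) and Mb (34.4 CPM), and mouse 7 for Col1a1 (7.78 CPM).

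The strain difference of 17 named genes differed between WD and CD by the interaction test of limma-voom. On the log2 scale the difference on WD minus that on CD was 3.14 for Cyp3a11, 1.21 for Camk1d, 1.19 for Pltp, 0.61 for Gstm1 and 0.69 for Serpina1a, all lower in CAST/EiJ on both diets and nearer to 0 on WD. It was −5.96 for Mup17, −2.79 for Ciart, −1.88 for Nnmt, −1.71 for C4a, −1.02 for Cyp2d12, −0.95 for Aass, −0.48 for Asl, −0.46 for mt-Cytb and −0.43 for Mgst1, all higher in CAST/EiJ and nearer to 0 on WD. It was −1.99 for Serpina7, −1.03 for Adgre1 and −0.84 for Me1, which were lower in CAST/EiJ and farther from 0 on WD.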

How the results depend on the processing

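Across the tests, scalings, filters and covariates the count of called genes stayed within 1.5 times of 12595, except that testing all genes with any count called 22377, of which 15042 were higher in CAST/EiJ, and that cohort 1 alone, where a single CAST/EiJ mouse was assumed to vary like the other groups, called 6485 (3730 higher and 2755 lower, 1817 of them at least 2-fold lower) with the gene list counts summing to 342 calls. Cohort 1 holds only 4 of the 15 mice, and the part that mouse number has in its smaller counts was not tested. Requiring at least 10 counts in every mouse, which left 12979 genes, gave 838 genes at least 2-fold higher and 1206 lower. With library size in place of TMM 4191 were higher and 8544 lower, and with upper-quartile factors 5397 and 7208. Leaving out each mouse in turn gave 12119 to 12572 calls. Of 97 genes named in the report, 10 lost their call or reversed in cohort 1 only: the log2 fold changes of Acta1 (−0.93) and Mb (−0.65) reversed, and Mup3, Serpina1e, Fitm1, Marco, Trac, Col1a1, Cps1 and Ddx3y were not called there. Acta1 and Mb were no longer called with cohort as a term. Mup3 was not called by edgeR's quasi-likelihood test (log2 fold change 0.66) or in a fit of only the 15 mice. The share of reads outside genes passed the test as a share of the reads mapped (0.632 percentage points higher in CAST/EiJ, exact permutation p = 0.00839), and the share on mitochondrial genes did not pass it as a share of the reads on genes (−0.51, exact permutation p = 0.184). The causes of these changes were not tested. No paired analysis was possible because the labels give the mice no replicate numbers. RNA integrity was 8.7 to 9.2 in CAST/EiJ and 7.0 to 8.9 in C57BL/6J, and 12383 genes were called with it as a term. Genes at a few counts per library allow a difference only against the floor of 3 counts.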
